A study of Rattus norvegicus with 6 samples.

Results

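The genes described here encode proteins that make, store and break down serotonin and dopamine. Only their RNA was measured, in rat pancreatic islets, which hold the insulin-producing beta cells and other hormone cells. All 9 were chosen by name and had a row among the 17055 genes counted: Tph1, Tph2, Th, Ddc, Gch1, Slc18a1, Slc18a2, Maoa and Maob. Whole islets of control Sprague-Dawley rats of 2 ages were profiled by mRNA sequencing, with 3 libraries labelled as biological replicates at each age. P10 islets came from 10-day-old rats (replicates 1, 3 and 4). Adult islets came from males aged 3 months (replicates 1, 2 and 3). No sex is given for the P10 rats, nor is it stated whether pups were pooled for a library. The p-values therefore measure the spread between these libraries. A measured difference in whole islets cannot tell fewer cells of a type from less RNA per cell.

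As background, serotonin is made from tryptophan and dopamine from tyrosine, each in a pair of steps. Tryptophan hydroxylase (Tph1 outside the brain, Tph2 in neurons) or tyrosine hydroxylase (Th) acts first and sets the rate, with tetrahydrobiopterin as cofactor, whose own synthesis starts with GTP cyclohydrolase (Gch1). Aromatic amino acid decarboxylase (Ddc) completes both amines, the vesicular monoamine transporters VMAT1 (Slc18a1) and VMAT2 (Slc18a2) load them into granules, and the monoamine oxidases (Maoa, Maob) degrade them. Beta cells are known to store serotonin beside insulin and to raise its synthesis in pregnancy under lactogenic hormones, and islets are known to take up and decarboxylate amine precursors.

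Scaled by edgeR's TMM factors (trimmed means, which centre the bulk of genes), Ddc and Maoa were 1.68-fold and 1.85-fold higher in adult islets. Gch1 and Maob differed little, Slc18a1 was higher without passing the test, and Tph1, Tph2, Th and Slc18a2 had few reads, at most 18 in a library. These single-gene results depended on the scaling. With library totals alone, or per count of endocrine marker genes, neither Ddc nor Maoa passed and Maob passed as lower. Gch1 passed as lower per count of endocrine marker genes only. With library totals and endocrine marker counts, 3612 and 4589 of the 10124 tested genes passed as lower, and 343 and 271 as higher. The median log2 fold change over all tested genes was then -0.52 and -0.66, beside -0.46 and -0.60 for Maob. Of the 9 genes, 5 passed the filter on low counts and 2 of these, Ddc and Maoa, passed the test as higher in adults. None passed as lower with TMM factors. By edgeR's quasi-likelihood test with the false discovery rate (FDR) held below 0.05, 26.3% of all tested genes passed, 12.5% as higher and 13.8% as lower in adults. Levels are given in CPM, each gene's reads per 1e6 gene reads of the library, with library sizes corrected by edgeR's TMM factors. They are compared here within a gene and not between genes, since transcript lengths were not used.

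Gene counts per library ran from 3307415 to 6477825, so 3 counts, the limit that a count of 0 allows, stood for 0.407 to 1.10 CPM (counting error only). The deepest libraries, P10 replicate 1 and adult replicate 3, listed the fewest genes, 11182 and 11342, against 11607 to 12369 in the others. P10 replicate 1 was at 0 for 342 genes that all other libraries counted, against 11 to 207 for the other libraries. Among genes whose level in the other P10 libraries predicted 10 to 40 counts in it, 17.2% were at 0. Values of the 9 genes without these libraries are given where they moved by over 1.5 times or changed a call. Islet identity was clear, as the insulin genes Ins1 and Ins2 took 28.3% to 33.6% of gene counts at P10 and 46.6% to 52.3% in adults. These reads enter the library totals, and their part in the results with library totals alone was not tested.

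The promoters of the neighbouring genes Maoa and Maob are shown because the ratio of their reads within a library, which no scaling alters, separated the ages. That separation did not pass a test (exact two-sided permutation p = 0.1, the smallest possible here, adjusted p = 0.25). In RefSeq's GRCr8 table the genes lie side by side on chromosome X with no gene between them and on opposite strands. The 250 bases before each start are written 5′ to 3′ on the gene's strand, Maoa at chrX:8681373-8681622 (minus) and Maob at chrX:8490155-8490404 (plus), with each GC box (GGGCGG, on either strand) in capitals.
Maoa: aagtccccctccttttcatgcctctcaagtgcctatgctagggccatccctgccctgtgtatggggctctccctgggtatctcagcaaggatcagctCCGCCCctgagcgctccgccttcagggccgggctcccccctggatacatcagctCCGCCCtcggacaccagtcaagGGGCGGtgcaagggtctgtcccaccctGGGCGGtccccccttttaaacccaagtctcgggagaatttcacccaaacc
Maob: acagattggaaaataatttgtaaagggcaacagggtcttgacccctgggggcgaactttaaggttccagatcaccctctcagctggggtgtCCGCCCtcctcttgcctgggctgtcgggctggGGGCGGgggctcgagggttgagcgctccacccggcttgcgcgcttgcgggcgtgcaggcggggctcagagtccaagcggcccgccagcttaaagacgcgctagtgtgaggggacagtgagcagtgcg
The Maoa stretch held 4 GC boxes and the Maob stretch 2, and neither held a TATA box (TATAAA, either strand). Maob held 1 CCAAT box (CCAAT, either strand) and Maoa none. Of 33469 rat promoter stretches of this length, 30.5% held a GC box, 12.9% a TATA box and 34.0% a CCAAT box. Promoter entries existed for 8 of the 9 genes, of which 5 held a GC box (Tph1, Slc18a2, Gch1, Maoa and Maob), whereas Tph2, Th and the 3 listed starts of Ddc held none. The Maoa and Maob stretches were 62.4% and 63.6% G and C, against a median of 51.2% over all stretches. A match describes letters only.

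Ddc makes both serotonin and dopamine from their hydroxylated precursors. At P10 its level was 45.7, 28.1 and 30.8 CPM (replicates 1, 3 and 4), and the adult libraries had 65.0, 56.8 and 54.5 CPM (replicates 1, 2 and 3). Every adult library lay above every P10 library, and P10 replicate 1 was the highest of its group. The groups did not overlap in 42.3% of all genes tested. The mean rose from 34.9 ± 9.48 to 58.8 ± 5.51 CPM (SD, n = 3), a log2 fold change of 0.74 ± 0.20 (SE; edgeR FDR = 0.0129). It did not pass under the other scalings (edgeR FDR = 0.335 with library totals, 0.640 per endocrine marker count). The call was also lost without P10 replicate 3, P10 replicate 4 or adult replicate 1 (edgeR FDR = 0.0631, 0.0546 and 0.0629), with log2 fold changes of 0.61 to 0.67. Without P10 replicate 1 and adult replicate 3 together, a choice made after seeing the data, the log2 fold change was 1.07 (edgeR FDR = 0.000470).

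Maoa, the oxidase that prefers serotonin and noradrenaline, moved like Ddc. It stood at 28.3, 19.9 and 20.1 CPM in the P10 libraries and at 33.5, 41.8 and 50.9 CPM in the adult libraries. Here too the groups did not overlap, with P10 replicate 1 again highest at its age and adult replicate 3 highest of all. The mean went from 22.8 ± 4.80 to 42.1 ± 8.66 CPM (SD, n = 3), a log2 fold change of 0.89 ± 0.22 (SE; edgeR FDR = 0.00849). Leaving out adult replicate 3 took the call just past the threshold (log2 fold change 0.72, edgeR FDR = 0.0521), and it held without any other single library. Adult replicate 3 also had the highest acinar (digestive enzyme cell) markers of its group, with Prss1 at 941 CPM against 195 and 201 CPM in adult replicates 1 and 2. The summed level of the 9 acinar markers, of which 3 rose and 4 fell, was 2478 to 3535 CPM at P10 and 999.8 to 3833 CPM in adults, and its part in the Maoa value was not tested. Under the other scalings Maoa did not pass (edgeR FDR = 0.186 with library totals, 0.355 per endocrine marker count).

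Maob, the oxidase that prefers phenylethylamine, differed little with TMM factors, whereas it passed as lower under both other scalings. There its log2 fold changes of -0.46 and -0.60 lay close to the medians over all tested genes, -0.52 and -0.66. Its TMM values were 83.7, 84.1 and 90.3 CPM at P10 and 84.4, 89.4 and 90.2 CPM in adults, so the groups overlapped throughout. The log2 fold change was 0.03 ± 0.14 (SE; edgeR FDR = 0.884), with an approximate 95% interval of -0.23 to 0.30. On this scaling a rise as large as that of Maoa lay outside the interval.

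Gch1, the first enzyme of tetrahydrobiopterin synthesis, overlapped as well. The P10 libraries had 67.4, 76.1 and 72.1 CPM and the adult libraries 68.5, 89.1 and 72.0 CPM. Adult replicate 2 was the highest, and the other adult libraries lay within the P10 range. With TMM factors the log2 fold change was 0.09 ± 0.15 (SE; edgeR FDR = 0.726), with an approximate 95% interval of -0.22 to 0.39. Gch1 passed as lower per endocrine marker count (-0.54, edgeR FDR = 0.0135) but not with library totals alone (-0.42, edgeR FDR = 0.0567). The medians over all tested genes were -0.66 and -0.52 there.

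**Figure D1:**
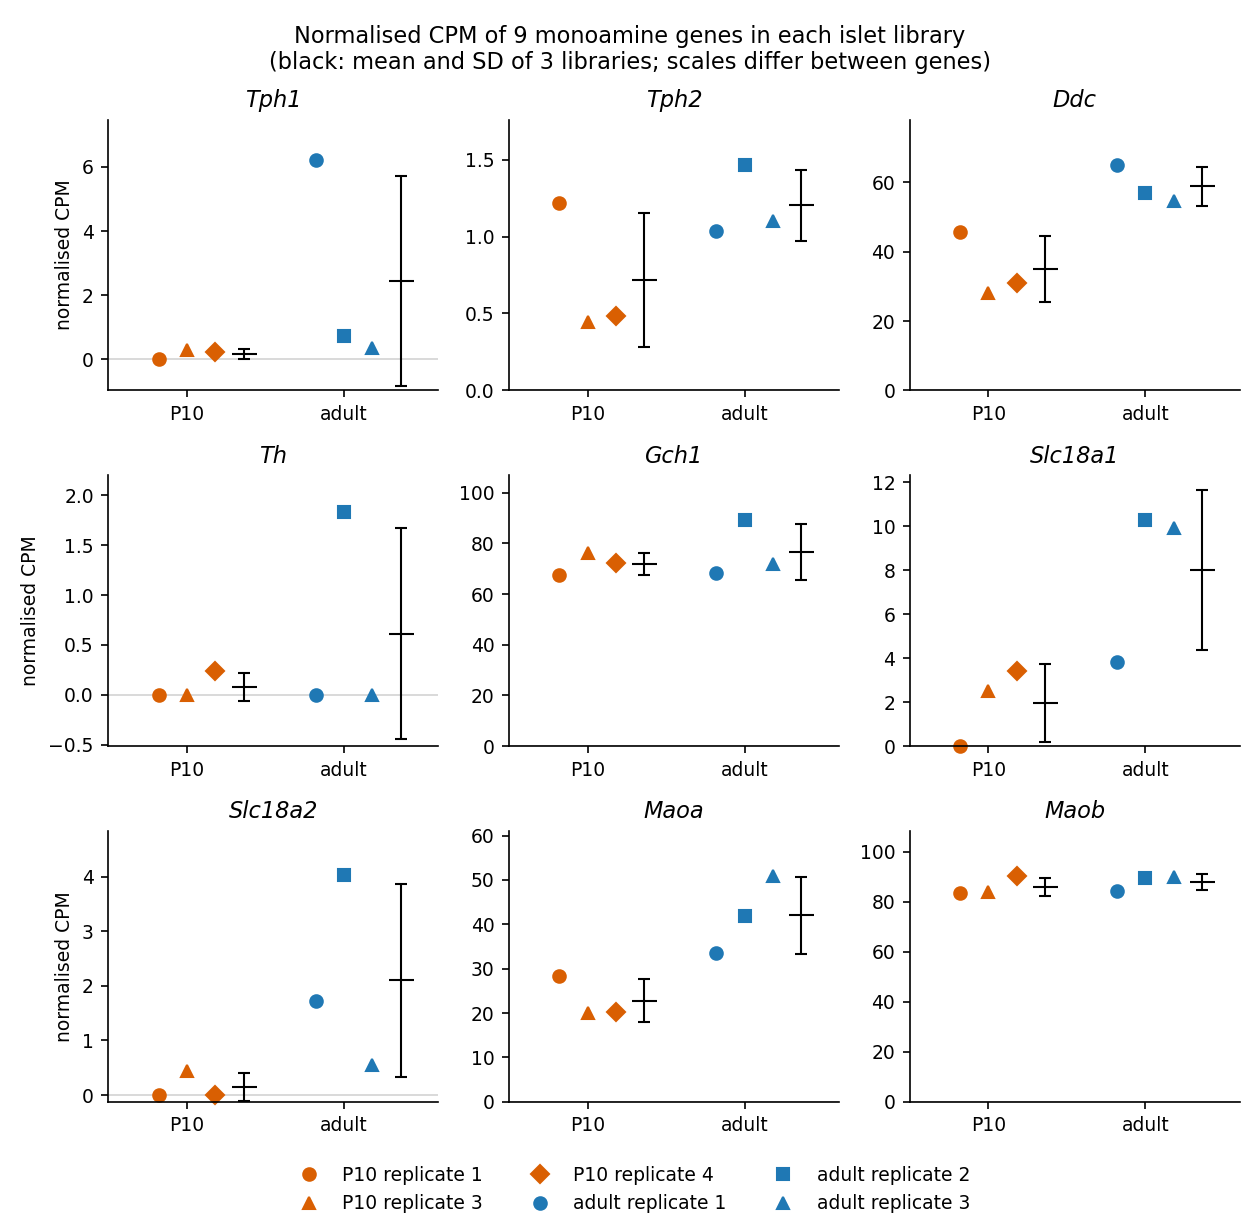
Normalised CPM of each of the 9 genes (vertical axis, a scale of its own for each gene) in the 3 P10 and 3 adult libraries, where points are libraries and the black bar is the mean and SD. Ddc and Maoa are higher in all 3 adult libraries, Gch1 and Maob overlap, and Tph1, Tph2, Th and Slc18a2 have at most 6.22 CPM in a library.

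The rate-limiting hydroxylases had few reads. Tph1 had 0, 2 and 1 reads at P10, and 18, 2 and 2 reads in the adult libraries, in the same order of replicates. Adult replicate 1 held 18 of the 22 adult reads (6.22 CPM), and the other adult libraries, at 0.733 and 0.367 CPM, were at or under the limit of 3 counts. The ratio of pooled normalised counts, adult over P10, was 12.1 (exact 95% counting interval 3.63 to 63.0), and 2.98 (0.504 to 20.3) without adult replicate 1. Such intervals cover counting error only and leave out the spread between libraries. The ratio of Tph1 was 7.24 without P10 replicate 1, 23.0 without P10 replicate 3 and 21.7 without adult replicate 3. Without the filter on low counts its edgeR FDR was 0.144, so no difference was called.

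Tph2, the neuronal form, had 9, 3 and 2 reads at P10 and 3, 4 and 6 in adults. These 0.446 to 1.47 CPM overlapped between the ages, with a pooled ratio of 1.53 (0.662 to 3.51). Without P10 replicate 1, which held 9 of the 14 P10 reads, it was 2.57 (0.858 to 9.19), and without adult replicate 3 as well 2.74 (0.749 to 10.9). Th, the rate-limiting enzyme of dopamine synthesis, had 1 read at P10, in replicate 4, and 5 in adults, all in replicate 2. Both remaining adult libraries and both remaining P10 libraries were at 0, which allows up to 0.407 to 1.04 CPM. The pooled ratio was 8.23 (0.921 to 389). It was 4.93 (0.552 to 233) without P10 replicate 1, 5.22 (0.584 to 247) without P10 replicate 3 and 16.3 (1.82 to 770) without adult replicate 3. All adult reads lie in 1 library, and unfiltered the edgeR FDR was 0.479.

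The vesicular transporters were low, and each had at least 1 P10 library at 0. Slc18a1 (VMAT1) had 0, 17 and 14 reads at P10 and 11, 28 and 54 in adults, or 0, 2.53 and 3.40 against 3.80, 10.3 and 9.91 CPM. The groups did not overlap, but adult replicate 1 stood close to P10 replicate 4. The log2 fold change of 2.08 ± 0.84 (SE) did not pass (edgeR FDR = 0.0822), whereas it passed in DESeq2 (adjusted p = 0.0404) and without the filter on low counts (edgeR FDR = 0.0256). P10 replicate 1, at 0 where the level of the other P10 libraries predicts 21.8 reads, is the library with many such zeros. Without it the log2 fold change was 1.47 (edgeR FDR = 0.0740), and without adult replicate 3 as well it was 1.27 (edgeR FDR = 0.124).

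Slc18a2 (VMAT2), the form known from neurons and platelets, had 0, 3 and 0 reads at P10 and 5, 11 and 3 in adults. Adult replicate 2, at 4.03 CPM, stood highest, and adult replicate 3 was at 0.551 CPM beside 0.446 CPM in P10 replicate 3. The pooled ratio was 10.4 (exact 95% counting interval 3.07 to 55.0), with values of 5.85 without adult replicate 2, 6.25 without P10 replicate 1 and 17.4 without adult replicate 3. No P10 read was left without P10 replicate 3. Unfiltered, its edgeR FDR was 0.188.

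Ratios of 2 genes within a library do not depend on how libraries are scaled, and 5 such ratios were compared. Read counts of Maoa per read of Maob were 0.339, 0.237 and 0.224 at P10 and 0.399, 0.468 and 0.565 in adults. All adult ratios were higher, by 0.85 in mean log2 (-1.93 ± 0.32 to -1.08 ± 0.25, SD, n = 3; exact two-sided permutation p = 0.1, adjusted p = 0.25 over the 5 ratios). Ddc per Maob separated the ages likewise, at 0.547, 0.335 and 0.342 against 0.771, 0.636 and 0.605 (mean log2 difference 0.75, exact permutation p = 0.1, adjusted p = 0.25). With 3 against 3 libraries 0.1 is the smallest p possible. Gch1 per Ddc was 1.47, 2.70 and 2.33 at P10 and 1.05, 1.57 and 1.32 in adults, a mean log2 difference of -0.70 with 1 P10 library inside the adult range (exact permutation p = 0.2, adjusted p = 0.333). For Th per Ddc and Slc18a1 per Slc18a2, which rest on few reads, the exact permutation p was 0.6 and 1.

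**Figure D2:**
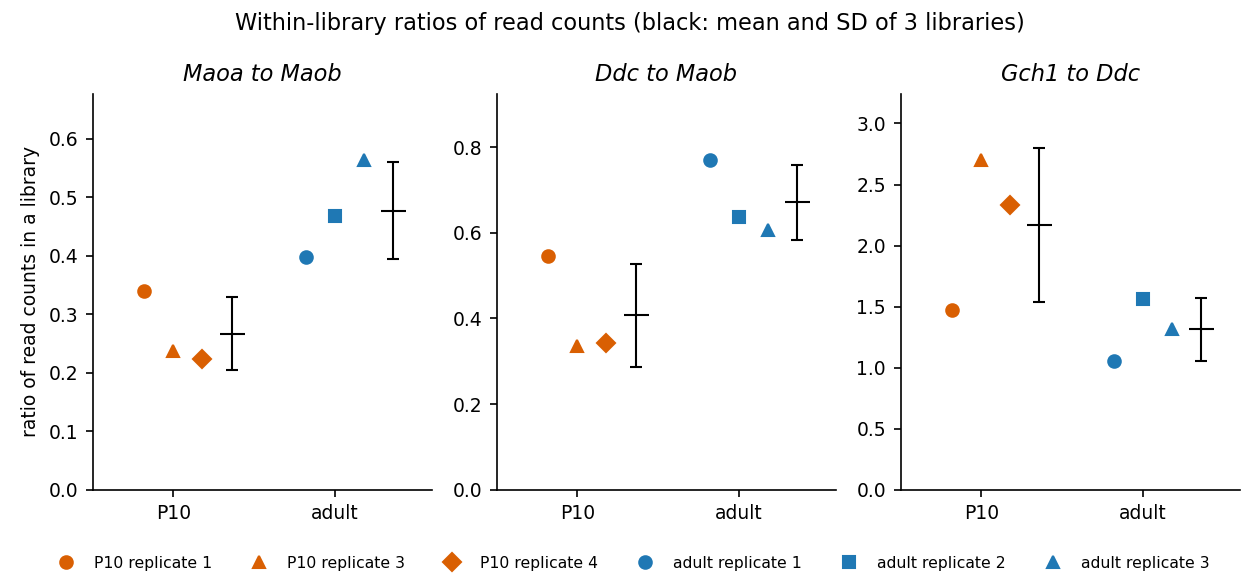
Ratio of read counts within each library (vertical axis) for Maoa to Maob, Ddc to Maob and Gch1 to Ddc, where points are the 3 P10 and 3 adult libraries and the black bar is the mean and SD. The Maoa to Maob ratio is 0.224 to 0.339 at P10 and 0.399 to 0.565 in adults, without overlap.

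Single-gene folds, by contrast, depended on the scaling. With library totals alone, the median over all tested genes moved by -0.49 (log2), and Ddc and Maoa, at 0.26 and 0.40, did not pass (edgeR FDR = 0.335 and 0.186). Maob then passed as lower (-0.46, edgeR FDR = 0.0253) and Gch1 came to -0.42 (edgeR FDR = 0.0567). Set against the summed counts of 9 genes of all endocrine cells (Chga, Chgb, Scg2, Scg3, Scg5, Pcsk2, Cpe, Neurod1 and Isl1), a scaling chosen after seeing the data, that median moved by -0.63. Ddc and Maoa were then at 0.12 and 0.26 and did not pass (edgeR FDR = 0.640 and 0.355), and Gch1 and Maob were lower by log2 fold changes of -0.54 and -0.60 (edgeR FDR = 0.0135 and 0.00272). Per 10000 endocrine marker counts, Maob went from 100.8, 107.6 and 112.0 at P10 to 66.6, 74.1 and 71.0 in adults. Ddc went from 55.1, 35.9 and 38.2 to 51.3, 47.1 and 42.9, with the adult libraries inside the P10 range. The upper end of that range was P10 replicate 1 alone, and the other P10 libraries lay below every adult library. For Maoa, P10 replicate 1 lay inside the adult range, and the other P10 libraries again lay below every adult library. This scaling was not tested without P10 replicate 1.

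**Figure D3:**
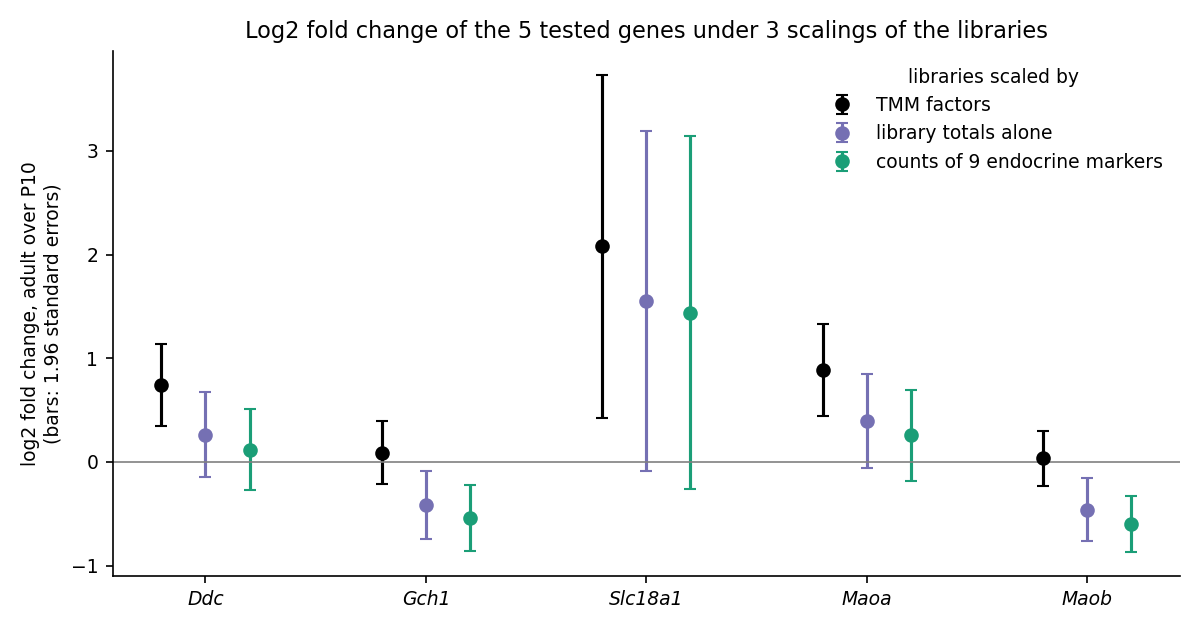
Log2 fold change, adult over P10 (vertical axis), of the 5 tested genes under 3 scalings of the libraries, where bars are approximate 95% intervals. Ddc and Maoa lie above 0 with TMM factors and near 0 per endocrine marker count (0.12 and 0.26), while Gch1 and Maob go from near 0 to -0.54 and -0.60.

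Markers of several cell types differed between the ages in the same libraries. With TMM factors, 6 of the 9 endocrine genes rose (median log2 fold change 0.62) and their summed level went from 7816 to 8299 CPM at P10 to 12072 to 12703 CPM in adults. As a share of gene counts, the same 9 genes overlapped, at 0.934% to 0.983% at P10 and 0.946% to 1.11% in adults. Of the beta-cell markers 7 of 9 rose (median 1.09), while 6 of the 7 fibroblast markers were tested and fell (median -2.60) and 3 of 4 duct markers fell (median -2.25), against a median of -0.03 over all tested genes. Their part in the Ddc and Maoa values was not tested. The remaining fibroblast marker, Col1a2, was at 0 in all 6 libraries, although its partner chain Col1a1 had 7320 to 12853 reads in the P10 libraries. A row of zeros in these files may therefore not mean that a gene was silent, and genes at 0 throughout are listed below as such only. Mast cells and sympathetic nerves also make or store monoamines. Of the 9 mast-cell markers 4 were at 0 in all libraries, among them Cpa3 and Fcer1a, and the summed level was 30.3 to 65.0 CPM at P10 and 41.9 to 57.5 CPM in adults, mostly Kit. Of 8 sympathetic neuron markers with a row, Slc6a2 and Npy were at 0 throughout. Only 4 of the 8 were tested and none of these passed. The summed level was 56.0 to 80.1 CPM at P10 and 40.9 to 73.0 CPM in adults.

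The rest of the pathway was read from 6 lists with 71 entries, of which 68 had a row and 28 were tested, with 8 higher and 3 lower in adults. Over all tested genes the shares higher and lower were 12.5% and 13.8%. Among the genes that build and recycle tetrahydrobiopterin, 2 of 5 tested fell and none rose, beside Gch1, which differed little with TMM factors. Pts, the second enzyme of its synthesis, fell from 68.1, 56.6 and 50.5 to 20.7, 26.4 and 24.8 CPM, a 2.44-fold difference (log2 fold change -1.29 ± 0.19, SE; edgeR FDR = 0.000162) without overlap. Spr, sepiapterin reductase, which ends that synthesis, fell 1.75-fold (edgeR FDR = 0.0320), a call that held without P10 replicate 1 but was lost without any other single library (edgeR FDR = 0.0519 to 0.106). Pcbd1 and Qdpr, which regenerate the cofactor, did not pass with TMM factors but did as lower with library totals (edgeR FDR = 0.00511 and 0.0475) and per endocrine marker count (edgeR FDR = 0.000858 and 0.0224). Pcbd1 then had log2 fold changes of -0.60 and -0.73, and Qdpr -0.55 and -0.67. The medians over all tested genes were -0.52 and -0.66 there. Pcbd1 had 105 ± 4.98 CPM at P10 and 98.5 ± 9.75 CPM in adults (SD, n = 3). The list's median log2 fold change was -0.80.

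Of the enzymes that act beyond the monoamines, 1 of 7 tested passed, as lower, with a list median log2 fold change of -0.023. Aldh2, a mitochondrial aldehyde dehydrogenase that takes up the aldehydes left by monoamine oxidase, fell 7.91-fold from 25.7 ± 5.64 to 3.33 ± 2.30 CPM (SD, n = 3; edgeR FDR = 6.50e-05). The call held without any single library and under both other scalings. Akr1a1, an aldehyde reductase and the gene of the list with the highest mean CPM (not corrected for length), did not pass (log2 fold change -0.023), but did as lower under both other scalings (-0.52 and -0.65, edgeR FDR = 0.00781 and 0.000453). Those values lay at the medians over all tested genes, which were -0.52 and -0.66 under these scalings. Dbh, which turns dopamine into noradrenaline, had 0, 25 and 7 reads at P10 and 23, 26 and 24 in adults, a difference that missed the threshold (edgeR FDR = 0.103) at a log2 fold change of 1.99. Its 0 lies in P10 replicate 1, as for Slc18a1. Without that library the log2 fold change was 1.36 (edgeR FDR = 0.115), and without adult replicate 3 as well it passed at 1.64 (edgeR FDR = 0.0325). It also passed without P10 replicate 3 (3.28, edgeR FDR = 0.0404) and without the filter (edgeR FDR = 0.0469).

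Of the precursor and amine transporters, 4 of 5 tested genes rose and none fell (list median 0.88). Slc7a5 and Slc7a8, the LAT1 and LAT2 carriers of large neutral amino acids such as tryptophan, tyrosine and L-DOPA, rose 1.95-fold and 2.10-fold, and their partner chain Slc3a2 1.76-fold. Slc7a8 went from 158, 148 and 182 to 339, 354 and 330 CPM (edgeR FDR = 1.30e-05). Slc29a4, a plasma membrane monoamine transporter, rose 1.84-fold to 406 ± 21.3 CPM (SD, n = 3; edgeR FDR = 6.86e-05). Per endocrine marker count Slc3a2 and Slc29a4 did not pass (edgeR FDR = 0.229 and 0.114), and Slc3a2 did not with library totals alone (edgeR FDR = 0.0789). The high-affinity carriers of noradrenaline and dopamine, Slc6a2 and Slc6a3, were at 0 in all 6 libraries, and that of serotonin, Slc6a4, had 3 reads in all.

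Few receptors had reads. Of 14 serotonin receptors 8 were at 0 in all libraries and only Htr5b was tested. It had 14.2, 8.47 and 8.98 CPM at P10 against 5.88, 4.76 and 4.04 CPM in adults, without overlap, and did not pass (log2 fold change -1.13 ± 0.43, SE; edgeR FDR = 0.0650). It passed with library totals (-1.61, edgeR FDR = 0.00730) and per endocrine marker count (-1.75, edgeR FDR = 0.00347), where the medians over all tested genes were -0.52 and -0.66. Without P10 replicate 1 and adult replicate 3 it was -0.69 (edgeR FDR = 0.298). Of 14 dopamine and adrenergic receptors only Adra2a was tested, the alpha-2A receptor through which catecholamines restrain insulin release. Its P10 mean of 27.6 ± 2.45 CPM compared with 84.1 ± 9.23 CPM in adults (SD, n = 3), a 3.03-fold rise (edgeR FDR = 5.42e-06) that also passed without any single library and under both other scalings. Drd2, the dopamine receptor known on beta cells, had at most 6 reads in a library. Adra1d, named after its values were seen, had 35, 12 and 14 reads at P10. Its adult libraries were all at 0. The pooled P10 level was 12.3-fold that of 3 counts over the adult group, or 6.27-fold without adult replicate 3. These folds take the P10 reads as exact and leave out the spread between libraries. P10 replicate 1 held 35 of the 61 P10 reads, and no fold was computed without it. Adra1d was not tested with the filter on low counts.

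Of the transcription factors of monoamine neurons and the hormone inputs to Tph1, 3 of 9 tested rose and none fell (list median 0.46). Prlr, the prolactin receptor, rose 2.89-fold, from 21.3, 13.4 and 10.7 to 41.5, 51.7 and 40.2 CPM (edgeR FDR = 0.000377), and Ghr, the growth hormone receptor, 1.94-fold (edgeR FDR = 0.000773). The Ghr call was lost with library totals alone and per endocrine marker count (edgeR FDR = 0.0685 and 0.149). Nkx2-2, an islet and serotonergic neuron factor, rose 1.47-fold (edgeR FDR = 0.0271), a call that depended on P10 replicate 4 (edgeR FDR = 0.0755 without it) and on adult replicates 1 and 3 (edgeR FDR = 0.113 and 0.0546 without each). Its log2 fold change was 0.062 with library totals alone and -0.079 per endocrine marker count. Fev, the factor that specifies serotonergic neurons, had 9.40 ± 2.71 CPM at P10 and 6.37 ± 1.81 CPM in adults (SD, n = 3), a difference that missed the threshold (edgeR FDR = 0.391) but passed per endocrine marker count (log2 fold change -1.17, edgeR FDR = 0.0334). On that scaling the median over all tested genes was -0.66.

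**Figure D4:**
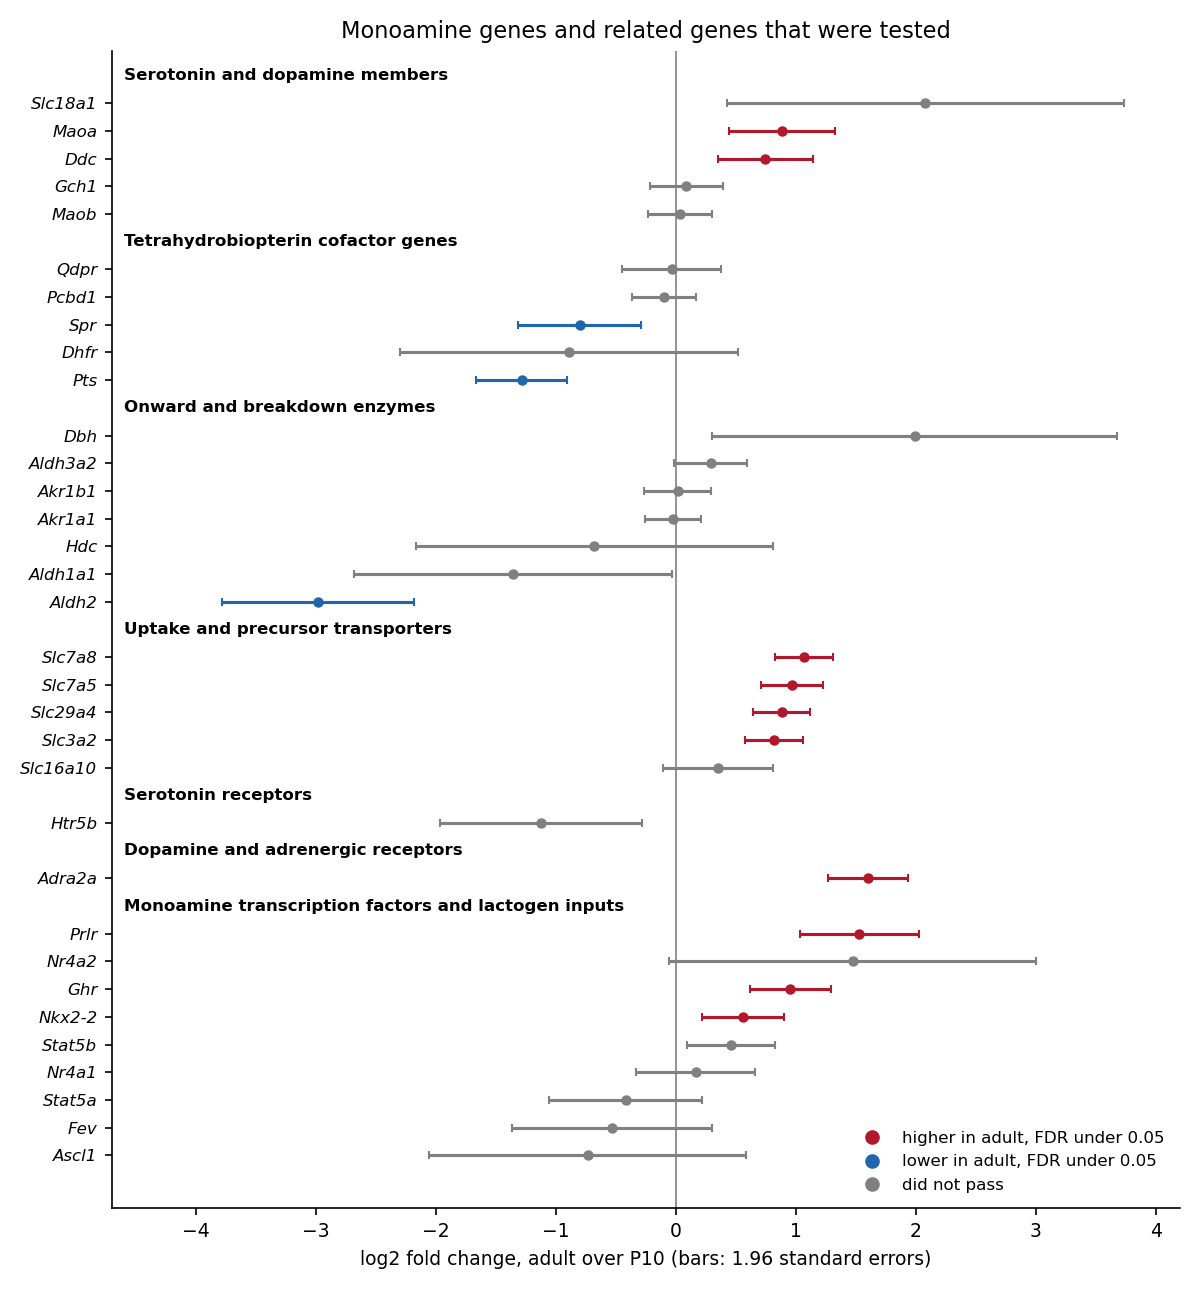
Log2 fold change, adult over P10 (horizontal axis, bars are approximate 95% intervals), of the 5 tested serotonin and dopamine genes and the tested genes of the 6 related lists, coloured by whether they passed at an FDR under 0.05 with TMM factors. Transporters lie to the right of 0 (0.35 to 1.07), while Pts, Spr and Aldh2 are lower in adults.

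The genes with profiles most like those of the 2 risers were sought among 8779 tested genes of at least 5 CPM. Likeness was the root mean square difference of log2 CPM over the 6 libraries, each gene centred on its own mean. For Ddc the nearest were Chchd10, Ddt and Crmp1, at 0.107 to 0.108, against a median of 0.554 over all genes compared. The nearest to Maoa were Insig1, Aktip and Ube2d1, at 0.0981 to 0.107, against a median of 0.588. Of these 6 genes only Ube2d1 did not pass (edgeR FDR = 0.120). They were picked for the smallest distances over these same libraries. Their low distances are therefore fixed by that choice, which also favours calls like those of Ddc and Maoa.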

How the data were processed

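Per the labels' protocols, polyadenylated RNA went into single-end libraries without strand information, so reads of antisense or overlapping genes cannot be told apart. The submitters' processing notes name Bowtie2, TopHat2 2.0.10, HTSeq, DESeq, edgeR and the rn5 build, without roles. Each library has a deposited file of raw counts, with 1 row for each gene symbol. The 5 counter rows stayed out of library sizes: ambiguous reads made up 0.319% to 0.474% and alignments that were not unique 15.1% to 27.7% of each file. A deposited table of all libraries was not used.

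Counts were tested with edgeR 4.0.16 (R 4.3.3) on all 6 libraries: filterByExpr (minimum count 10, total 15; 10124 genes kept), TMM factors, quasi-likelihood test with age as the only term, Benjamini-Hochberg adjustment over all tested genes, threshold 0.05. Each standard error is |log2 fold change| divided by the root of the F statistic, and approximate 95% intervals take the normal distribution. Genes below the filter are given as pooled ratios with exact 95% conditional binomial intervals, which leave out the spread between libraries. Ratios of counts within a library had 0.5 added. Fold changes are those of the fitted model. On simulated counts of the adult against P10 comparison (9941 genes), 53.6% of genes changed 2-fold and 86.7% of those changed 4-fold were recovered, with 8 false calls among 9746. The simulated libraries had the same composition apart from the few changed genes, and none was given extra zeros. These rates may therefore not hold for the real libraries. Alternatives were DESeq2 1.42.0, other scalings and filters, the replicate number as a block and leaving out libraries. The members and lists were chosen with earlier results of these data known. Named genes are all members, of each related list the called genes (up to 4 by smallest p) and the most abundant, and the 3 nearest profiles of each called member; 1 gene of the onward enzyme list is not reported here and left out of its counts; others are named for their number or role after their values were seen. Promoter letters are RefSeq's (GRCr8), a build other than that of the files.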

Additional observations from a re-analysis of the deposited data

How the results depend on the processing

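Ddc and Maoa stayed above 0 under all 16 alternatives (log2 fold changes of 0.12 to 1.07 and 0.26 to 1.09) and passed in 9 and 11 of them. Slc18a1 stayed above 0 in its 15 (1.27 to 3.21) and passed in 2.

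With library totals alone no member was higher and 1 was lower, against 343 genes higher and 3612 lower in all (8.67% of calls higher, against 47.6% with 1265 and 1394), and Gch1 and Maob turned to -0.42 and -0.46. The lists then had 4 cofactor genes, 4 onward and breakdown enzymes and 1 serotonin receptor lower, and 1 transcription factor or lactogen gene higher and 1 lower. Per endocrine marker count no member was higher and 2 were lower (271 and 4589 genes, 5.58% of calls higher), Gch1, Maob and Nkx2-2 turned to -0.54, -0.60 and -0.079, and 4 cofactor genes, 4 onward enzymes, 1 serotonin receptor and 2 transcription factor or lactogen genes were lower, with 2 transporters and 1 factor higher. Without a filter 1 onward enzyme was higher and 1 dopamine or adrenergic receptor lower.

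The replicate numbers 1 and 3 occur at both ages but share only a number (same-numbered deviations correlated at r = -0.03). The replicate block on those 4 libraries gave 688 genes higher and 736 lower, 0 members and 1 cofactor gene lower, with Gch1 at -0.026. The same 4 libraries without the block gave 712, 810, 0 members and 1 cofactor gene lower, with Gch1 at -0.025; fewer libraries entered both fits.

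Leaving out single libraries, 1 to 2 members were higher and Gch1 ranged from -0.026 (without adult replicate 2) to 0.16. Between 1 and 2 cofactor genes were lower, 0 to 1 onward enzymes higher and 0 to 1 dopamine or adrenergic receptors lower. The log2 difference of Th per Ddc ranged from -0.76 to 1.45 (-0.04 without P10 replicate 1) and of Slc18a1 per Slc18a2 from -1.48 to 0.95 (0.24 and 0.12 without adult replicates 1 and 2), where few reads set the sign. Akr1a1 and Qdpr, close to 0, turned sign without P10 replicate 1 (Akr1a1 0.052), P10 replicate 3 (Qdpr 0.075), P10 replicate 4 (Qdpr 0.015) and adult replicate 1 (Akr1a1 0.00073, Qdpr 0.18), in ranges over single libraries of -0.083 to 0.052 and -0.24 to 0.18. Without the 2 libraries listing the fewest genes, 1 cofactor gene was lower, 1 onward enzyme was higher and Akr1a1 was at 0.024.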
